A study of Mus musculus with 2 samples.

Results

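Expression of 9 genes of the JAK-STAT pathway was examined in LPS-stimulated macrophages with and without the mRNA-destabilizing protein tristetraprolin (TTP). The genes comprised 6 STAT transcription factors (*Stat2*, *Stat3*, *Stat4*, *Stat5a*, *Stat5b* and *Stat6*) and 3 inhibitors of the SOCS family (*Socs1*, *Socs3* and *Cish*). They were chosen by symbol, and all 9 were found among the 37451 genes of the expression table. The samples were primary bone marrow-derived macrophages (BMDMs), grown with CSF-1 from L929 cells out of the marrow of 7- to 9-week-old C57BL/6 mice. One library came from WT littermates and the other from ΔM mice, in which the TTP gene *Zfp36*, flanked by loxP sites (TTP fl/fl), is deleted by LysMCre, a Cre recombinase made in myeloid cells from the lysozyme M locus. Cells of both genotypes were labeled with 100 μM 4-thiouridine for 16 h and then received LPS at 10 ng/ml for 6 h, according to the protocols. The sample titles carry the suffix LPS7, which is not explained in the labels. Unstimulated cells and replicates are not among the 2 libraries analysed here, so the comparison is between 1 library and 1 library, carries no p-value and does not show how LPS itself changed any gene.

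JAK-STAT signalling carries cytokine signals from the membrane to the nucleus. Janus kinases bound to a cytokine receptor phosphorylate STAT proteins, which pair up, enter the nucleus and activate genes. Among these genes are those of SOCS proteins, which bind receptors or Janus kinases and shut the signal down. In macrophages exposed to LPS, secreted interferon-β, IL-6 and IL-10 act back on the cells through this pathway. Many SOCS transcripts are short-lived, and AU-rich elements built from the pentamer AUUUA, the element read by TTP, are a common cause of short transcript life.

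*Zfp36*, the targeted gene, was at 65.3 FPKM in WT against 16.7 FPKM in ΔM. FPKM counts sequenced fragments relative to the exon length of a gene and to the size of the library, so that levels of different genes can be compared. The steps between low FPKMs placed the depth at about 36600000 fragments in WT and 32950000 in ΔM. Ranges given in brackets after an FPKM are approximate 95% Poisson intervals from this depth and cover counting error only. All 8 macrophage markers examined were detected in both libraries, from 2.15 FPKM (*Mertk*) to 2481 FPKM (*Lyz2*) in WT and from 3.48 to 1356 FPKM in ΔM for the same genes. Of 33 markers of lymphoid, granulocytic, dendritic, stromal, endothelial and erythroid cells, 32 were below 1 FPKM in both libraries and 13 were at 0 in each, and the 33 summed to 7.01 FPKM in WT against 4.97 FPKM in ΔM. The exception was the endothelial marker *Kdr*, with 5.59 FPKM in WT against 3.23 FPKM in ΔM.

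Sequences of TTP crosslinking sites listed for *Socs3*, *Socs1*, *Stat2* and *Cish* are shown first, because TTP is the protein targeted in ΔM BMDMs. They are a selection of the listed sites. Each is written as DNA in the sense of the transcript, with every ATTTA pentamer in capitals, and each matched the mm9 genome at its stated position. The first 4 lines hold sites from 6 h of LPS, and the *Cish* line holds the first 30 bases of a site from 3 h of LPS. *Cish* was not among the members with a listed TTP site at 6 h, the time of the 2 libraries.
*Socs3*, 3′ UTR, chr11:117827425-117827436, minus strand: gtaATTTAtaat
*Socs1*, 3′ UTR, chr16:10784270-10784288, minus strand: cttattatttcttattatt
*Socs1*, 3′ UTR, chr16:10784252-10784264, minus strand: ttattatttttct
*Stat2*, intron, chr10:127721745-127721757, plus strand: tattatattttta
*Cish*, 3′ UTR, chr9:107203708-107203737, plus strand: tatacagtATTTATTTATTTAttctccttg
The sites shown differ in their pentamers. The *Cish* site holds 3 overlapping pentamers and the *Socs3* site 1, whereas the *Socs1* sites, rich in TTATT, hold 0. A pair of further pentamers lies just upstream in the *Socs3* 3′ UTR, where a site of 3 nt is the TTT of the second pentamer in a window of 30 bases (chr11:117827447-117827476, minus strand): cacatatATTTAtATTTAtactcagaaaag. The *Stat2* site shown holds 0 pentamers and lies outside the annotated exons of the gene.

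The other members are told apart by their 3′ UTRs as well. Over the longest annotated 3′ UTR of each gene (mm9), *Socs3* carried 4 pentamers in 1474 nt, or 2.71 per kb. *Cish* carried 3 in 2248 nt (1.33 per kb), all of them part of the extended TATTTAT form, and *Stat5b* carried 3 in 2365 nt (1.27 per kb). *Stat3* had 2 pentamers in 3701 nt and *Stat5a* 1 in 1173 nt. *Stat4* had 1 in only 252 nt, or 3.97 per kb, the highest density of the 9. *Stat2*, *Stat6* and *Socs1* had 0. Across 7935 expressed protein-coding genes the median was 1.16 per kb and 66.6% held at least 1 pentamer, so 6 of 9 among the members is close to the share among expressed genes. The extended form occurred in *Socs3*, *Cish* and *Stat5b*, and in 27% of expressed genes. Presence of a motif is a description of sequence and not evidence of binding.

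STAT genes covered a wide range of levels in both libraries, and *Stat3* was by far the most abundant. *Stat3*, the transducer of IL-6 and IL-10 signals, was at 376 FPKM [373.6-379.1] in WT against 374 FPKM [371.4-377.3] in ΔM. This placed *Stat3* at rank 73 from the top of the protein-coding genes in both libraries. *Stat2*, which joins IRF9 in the interferon-activated complex ISGF3, was at 68.1 FPKM [66.7-69.4] in WT against 73.0 FPKM [71.6-74.5] in ΔM. *Stat6*, the factor activated by IL-4 and IL-13, was at 43.7 FPKM [42.6-44.9] in WT against 39.9 FPKM [38.8-41.1] in ΔM. These genes thus formed the upper tier of the STAT genes described here, and *Stat3* alone made up 71.6% of the summed FPKM of the 6 genes in WT and 73.0% in ΔM.

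The STAT5 genes were expressed at lower levels. *Stat5a*, a transducer of GM-CSF and other growth factor signals, was at 29.1 FPKM [28.13-29.99] in WT against 16.6 FPKM [15.9-17.4] in ΔM. Its close paralog *Stat5b* was at 8.14 FPKM [7.73-8.57] in WT against 8.82 FPKM [8.37-9.29] in ΔM. *Stat5a* exceeded *Stat5b* by a factor of 3.57 in WT and of 1.88 in ΔM, so the distance between the paralogs was smaller in ΔM. *Stat4*, best known from IL-12 signalling in T and NK cells, was detected at a low level. It was at 0.32 FPKM [0.217-0.455] in WT against 0.28 FPKM [0.180-0.416] in ΔM, from about 30.7 and 24.2 fragments.

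Among the inhibitors, *Socs3* dominated. *Socs3*, which restrains IL-6 signalling at the receptor subunit gp130, was at 114 FPKM [112.2-116.8] in WT against 137 FPKM [134.5-139.7] in ΔM. *Socs1*, an inhibitor of interferon signalling that acts on Janus kinases, was at 9.58 FPKM [8.61-10.6] in WT against 11.1 FPKM [9.98-12.3] in ΔM. *Cish*, the founding member of the family and a target of STAT5, was at 0.41 FPKM [0.290-0.562] in WT against 0.04 FPKM [0.00924-0.111] in ΔM, from about 38.2 and 3.3 fragments. *Socs3* therefore exceeded *Socs1* by a factor of 11.9 in WT and 12.4 in ΔM, and it supplied 92.0% and 92.5% of the FPKM sum of the 3 genes. The FPKM of *Socs3* was 0.304 times that of *Stat3* in WT and 0.366 times in ΔM.

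**Figure D1:**
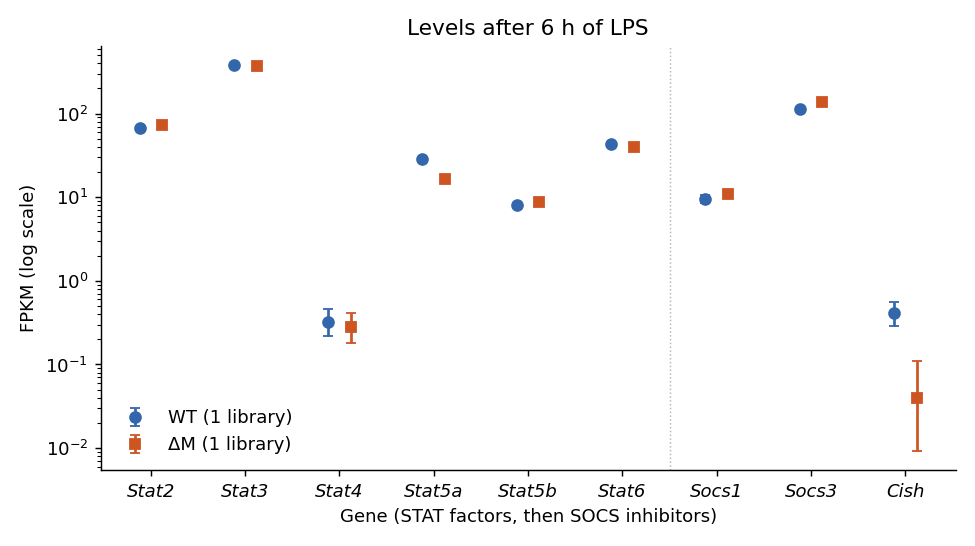
FPKM on a log scale for each of the 9 genes in the WT library (circles) and the ΔM library (squares), with bars for approximate 95% counting intervals. The levels run from 376 FPKM for *Stat3* to below 1 FPKM for *Stat4* and *Cish*, and the distance between the libraries is plain to see for *Stat5a* and *Cish*.

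The order of the levels was *Stat3*, *Socs3*, *Stat2*, *Stat6*, *Stat5a*, *Socs1* and *Stat5b* in both libraries. Counting intervals of neighbours in this order did not overlap, although those of *Socs1* and *Stat5b* nearly touched in WT. *Cish* and *Stat4* came last, with overlapping intervals in WT. In ΔM, *Cish* was below *Stat4* and their intervals were apart. With 1 library per genotype the spread between cultures is unknown, so intervals that are apart show only that counting error is too small to bridge them.

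To ask which of the 9 genes differed in level when TTP was lacking, log2 ratios (ΔM over WT) were formed with 1 FPKM added to each value. Of the 7 genes whose levels averaged 1 FPKM or more, 1 was lower in ΔM by at least 1.5-fold and 0 were higher. Among all 10765 genes with such an average, 7.51% were lower and 11.2% were higher by that measure, and among the 8078 protein-coding genes 5.36% were lower and 4.82% higher. Stricter limits left fewer protein-coding genes, with 1.32% lower and 1.19% higher by at least 2-fold, and with 3.92% lower and 3.22% higher by at least 1.5-fold among those averaging 10 FPKM or more. A single gene out of 7 is thus near the background and does not set the group apart. The median ratio of the 7 genes was 0.10, beside 0.03 over all genes and -0.00148 over protein-coding genes.

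The gene past this limit was *Stat5a*. Its FPKM in ΔM was 0.572 times that in WT, with a counting interval from 0.541 to 0.604 and a log2 ratio of -0.77. Only 2.59% of the protein-coding genes had a lower ratio. With 10 FPKM added in place of 1 the ratio was -0.55, inside the limit of 1.5-fold (0 of the members past it). The share of all genes past the limit at that setting was not calculated. Of the 8 macrophage markers, 7 were within 1.5-fold, with a median log2 ratio of -0.04 over the list and the highest ratio at *Mertk* (0.51). The marker past the limit was *Lyz2*, the gene of the Cre locus (-0.87), and the endothelial marker *Kdr* had a ratio of -0.64. The part of such marker differences in the *Stat5a* value was not tested. In bulk RNA, fewer cells that express a gene and less RNA per cell cannot be told apart.

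None of the other expressed protein-coding genes near *Stat5a* was past 1.5-fold, although *Ghdc* and *Rab5c* were also lower in ΔM. *Stat5b*, *Stat5a* and *Stat3* lie side by side on chromosome 11 of mm9, *Stat5b* from 100642045 to 100712038 on the minus strand, *Stat5a* from 100720665 to 100746483 on the plus strand and *Stat3* from 100746412 to 100800854 on the minus strand. The log2 ratio was 0.10 for *Stat5b* and -0.01 for *Stat3*. *Rab5c* and *Ghdc*, the other expressed protein-coding genes lying within 150 kb of *Stat5a*, had ratios of -0.16 and -0.39 and were named after their values were seen. *Stat5a* and *Stat3* converge, and their exons overlap by 72 nt, 1.85% of the longest coding transcript of *Stat5a*. Whether the authors assigned fragments by strand is not given in the sources used here, so fragments in these 72 nt may have been credited to either gene. The FPKM of *Stat3* was 12.95 times that of *Stat5a* in WT and 22.5 times in ΔM. Fragments of *Stat3* could therefore weigh more in the *Stat5a* value than the 1.85% of length. How much they added was not tested. *Stat5a* and *Stat5b* also share sequence. Of the 3789 windows of 100 nt, the read length, in the longest coding transcript of *Stat5a*, 265 (6.99%) recur exactly in *Stat5b* transcripts. A read that falls wholly within them cannot be assigned uniquely by its own sequence. The paper describes paired-end sequencing of rRNA-depleted RNA, so the other read of a pair may still place it. The share of fragments affected was not calculated. The transcripts of the other 7 genes held 0 windows shared with another protein-coding gene.

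For *Stat5a*, the member past the 1.5-fold limit, the sequences shown are sites listed in its 3′ UTR for HuR, an mRNA-stabilizing protein that also binds U-rich RNA.
*Stat5a*, 3′ UTR, chr11:100745933-100745949, plus strand: tttttttttttttttta
*Stat5a*, 3′ UTR, chr11:100745959-100745971, plus strand: tttgcttttttga
Both lie upstream of the stretch shared with *Stat3* and hold 0 ATTTA pentamers. *Stat5a* was not among the members with a listed TTP site at 3 h or 6 h of LPS. A link between the HuR sites and the level of *Stat5a* was not tested.

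The remaining 6 genes that passed the filter differed little between the genotypes, with log2 ratios from -0.13 to 0.26. *Socs3* was higher in ΔM with a log2 ratio of 0.26 and an FPKM ratio of 1.20 (counting interval from 1.17 to 1.23). This exceeded counting error, and 18.4% of the protein-coding genes had a higher ratio. *Socs1* had a log2 ratio of 0.19 and an FPKM ratio of 1.16, with a counting interval from 0.998 to 1.34 that included 1. *Stat2* had a log2 ratio of 0.10 and *Stat6* of -0.13. The counting interval of the FPKM ratio excluded 1 for *Stat2* (1.04 to 1.10), *Stat5b* (1.01 to 1.17) and *Stat6* (0.879 to 0.950), and included it for *Stat3* (0.984 to 1.01). The quartiles of all protein-coding genes were -0.19 and 0.18, and this range held 4 of these 6 ratios. Differences of this size were thus common between these libraries.

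**Figure D2:**
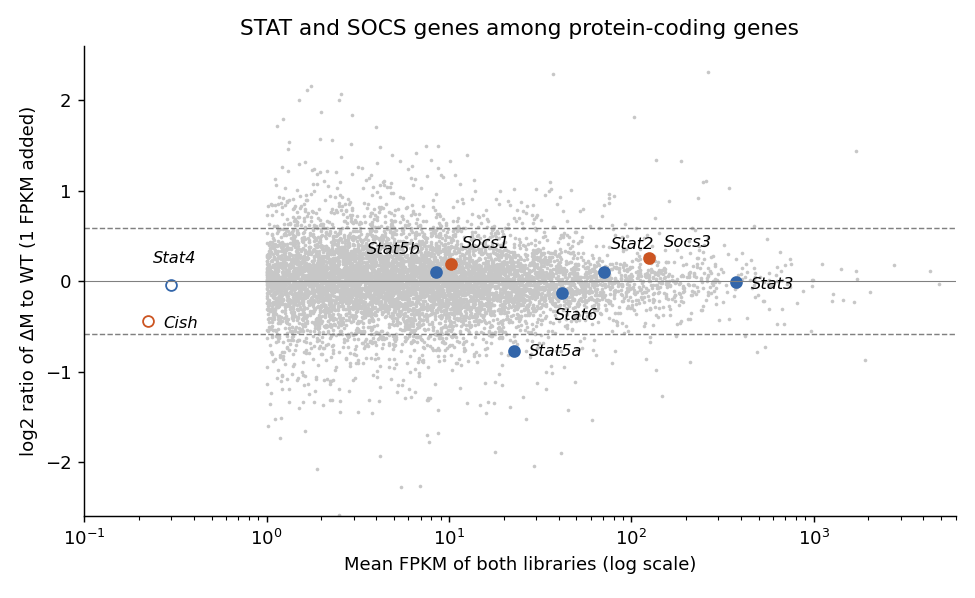
Log2 ratio (ΔM over WT, 1 FPKM added), plotted against the mean FPKM on a log scale, for 8078 protein-coding genes (gray, of which 11 lie outside the axes), STAT genes (blue) and SOCS genes (orange). Open circles mark *Stat4* and *Cish*, whose means are below 1 FPKM, dashed lines mark a 1.5-fold difference, and *Stat5a* is the one filled circle outside them.

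The genes below a mean of 1 FPKM were *Stat4* and *Cish*. The FPKM ratio of *Stat4* was 0.875, and its counting interval from 0.491 to 1.54 allows no direction. The FPKM ratio of *Cish* was 0.0976, with a counting interval from 0.0215 to 0.292, so *Cish* was lower in ΔM beyond counting error. Because 1 FPKM is large beside these values, the log2 ratio of *Cish* was only -0.44, and it was -1.87 when 0.1 FPKM was added instead. The *Cish* value in ΔM rests on about 3.3 fragments, and whether such a low level varies between cultures is unknown.

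The promoter of *Cish* held more copies of a STAT-binding motif than those of the other members. This motif, TTCNNNGAA, which reads the same on both strands, was sought in RefSeq promoters from 250 bases before to 50 bases after the start site (GRCm38.p6). It occurred in 2 of the 12 promoters of the 9 genes and in 8.3% of all 32851 promoters. *Cish* held 2 copies whose starts lie 11 bases apart, and 0.457% of all promoters held 2 or more. *Socs3* held 1 copy. They are shown with the motif in capitals.
*Cish*, chr9:107296649-107296677, plus strand: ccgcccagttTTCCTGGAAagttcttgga
*Cish*, chr9:107296660-107296688, plus strand: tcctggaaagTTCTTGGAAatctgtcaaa
*Socs3*, chr11:117969502-117969530, minus strand: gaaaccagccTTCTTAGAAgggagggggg
The 2 *Cish* lines overlap and show the same stretch of promoter. Promoters of *Socs1* and of the 6 STAT genes held 0 copies in this window, and a match does not show that a STAT was bound.

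Other SOCS genes were scarce. Of *Socs2*, *Socs4*, *Socs5*, *Socs6* and *Socs7*, 2 averaged 1 FPKM or more and 0 of these were past 1.5-fold. *Socs7* was at 5.32 FPKM in WT against 5.18 FPKM in ΔM, and *Socs6* at 1.06 and 0.95 FPKM. The lower 3 ranged from 0.17 to 0.72 FPKM in WT and from 0.15 to 0.72 FPKM in ΔM. *Socs2*, which like *Cish* is induced by STAT5, was at 0.17 FPKM [0.0892-0.294] in WT against 0.61 FPKM [0.436-0.830] in ΔM, the opposite direction to *Cish*. *Socs5* went in the same direction as *Cish*, with 0.44 FPKM [0.341-0.558] in WT against 0.15 FPKM [0.0925-0.230] in ΔM. *Socs4* was at 0.72 FPKM in both libraries.

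Genes upstream of the STATs were compared as lists taken from general knowledge of the pathway. All lists were chosen with earlier results of these data known, so their counts are not independent of the data. Counts in these and the following lists are to be read beside the 4.82% of protein-coding genes that were higher and the 5.36% that were lower by at least 1.5-fold. Over all lists outside the 9 genes, with each gene counted once, 4 of 76 genes averaging 1 FPKM or more were higher and 5 were lower. Of 4 Janus kinases, 0 were past 1.5-fold. *Jak2*, which serves the GM-CSF and interferon-γ receptors among others, had the highest WT level and the lowest ratio, with 50.1 FPKM in WT against 37.4 FPKM in ΔM (log2 ratio -0.41), and *Jak3* had the highest ratio of the list, with 6.43 and 7.88 FPKM (0.26). Of 22 cytokine receptors, 16 averaged 1 FPKM or more, 1 of these was higher in ΔM and 0 were lower. The higher one was *Il21r*, the IL-21 receptor, with 2.59 FPKM in WT against 5.82 FPKM in ΔM (0.93). *Il4ra*, the receptor chain that recruits STAT6, was the most abundant at 470 FPKM in WT against 647 FPKM in ΔM (0.46). The lowest ratio belonged to *Csf2rb*, the signalling chain of the GM-CSF receptor, with 31.8 FPKM in WT against 25.6 FPKM in ΔM (-0.30).

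Of 16 cytokines that signal through STATs, 6 averaged 1 FPKM or more, and 2 of these were higher and 1 lower in ΔM, beside 4.82% and 5.36% of protein-coding genes. With 6 genes, the list is too small for its share to be compared with that background. *Il10*, a cytokine that acts through STAT3, was at 45.1 FPKM in WT against 161 FPKM in ΔM (log2 ratio 1.82). *Il27* was at 107 FPKM in WT against 269.7 FPKM in ΔM (1.33), whereas *Ebi3*, its partner subunit, was at 77.0 and 48.5 FPKM (-0.66). Of 11 other negative regulators of the pathway, 0 were higher and 1 was lower. This was *Ptpn6*, the phosphatase SHP-1, with 678 FPKM in WT against 410 FPKM in ΔM (-0.73). *Pias4* had the highest ratio of this list, with 44.2 FPKM in WT against 60.6 FPKM in ΔM (0.44).

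Genes downstream of the STATs were grouped by the factor they respond to. Of 20 genes activated by ISGF3, the complex that contains STAT2, 0 were past 1.5-fold, and the median log2 ratio was 0.06. *Irf7* was the highest at 989 FPKM in WT against 994 FPKM in ΔM, and the extremes were *Rsad2* (731 and 527 FPKM, -0.47) and *Ifi44* (98.6 and 126 FPKM, 0.35). Of 10 genes responsive to STAT3, likewise 0 were past 1.5-fold, with a median of 0.05. *Saa3* was the most abundant at 4925 FPKM in WT against 4816 FPKM in ΔM. *Pim1*, a kinase gene that stands in the STAT3 and the STAT5 list, had the highest ratio, with 78.6 and 111 FPKM (0.50), and *Cebpd* the lowest, with 24.6 and 19.8 FPKM (-0.30).

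Of 7 STAT5-responsive genes, 5 averaged 1 FPKM or more and 1 of these was past 1.5-fold. This was *Ccnd2*, encoding cyclin D2, which was at 6.49 FPKM in WT against 2.89 FPKM in ΔM (log2 ratio -0.95). *Cish* is not in this list because it is one of the 9 genes. The median of the list was 0.04, and *Pim1* had its highest ratio (0.50). Of 11 STAT6-responsive genes, 4 averaged 1 FPKM or more, with 1 higher and 2 lower in ΔM, again beside 4.82% and 5.36% of protein-coding genes and too few to compare. *Ccl22*, a chemokine gene, was at 48.0 FPKM in WT against 10.9 FPKM in ΔM (-2.04), and *Ccl17* at 3.71 and 1.85 FPKM (-0.72). *Mrc1*, encoding the mannose receptor, was at 5.45 FPKM in WT against 11.6 FPKM in ΔM (0.96). Of the cytokines that activate STAT6, *Il4* was at 0 FPKM in both libraries. *Il13* was at 0 FPKM in WT against 0.03 FPKM in ΔM. Whether STAT6 had a part in the differences of these genes was not tested.

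**Figure D3:**
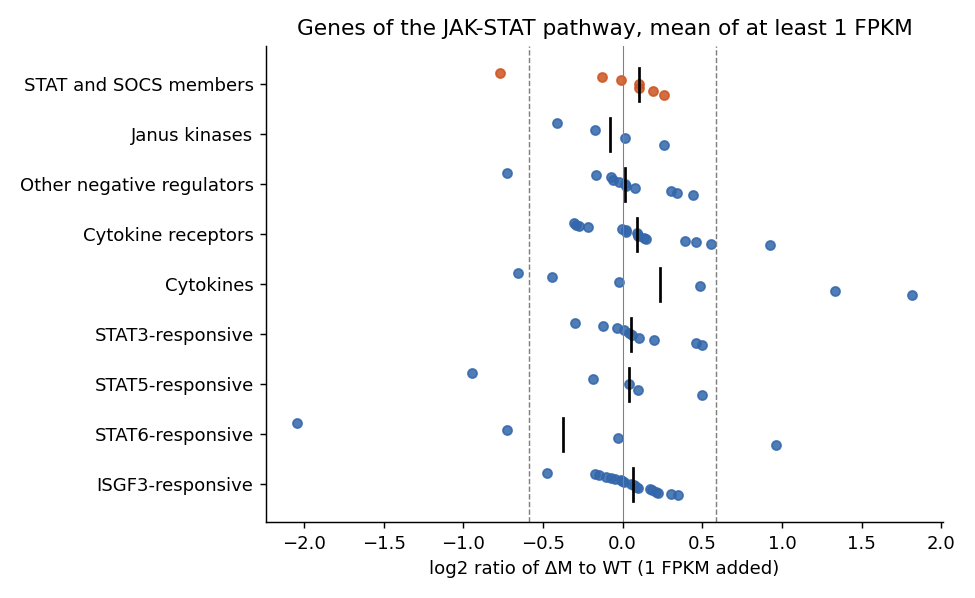
Log2 ratio (ΔM over WT, 1 FPKM added) of genes averaging 1 FPKM or more, by list, with 1 point per gene, black bars for the medians and dashed lines at a 1.5-fold difference. All points of the Janus kinase, STAT3 and ISGF3 lists lie between the dashed lines, and the points farthest out are *Il10* at 1.82 and *Ccl22* at -2.04.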

How the data were processed

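RNA-Seq was performed on 1 WT and 1 ΔM library of rRNA-depleted RNA. The authors trimmed the reads with Cutadapt, mapped them to mm9 with Segemehl, kept unique alignments and calculated FPKM with Cufflinks on Ensembl exons. The deposited FPKM values are given to 2 decimals, and since FPKM are normalized values, count models were not applied.

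Gene models were those of GENCODE M1 (NCBIM37, the same assembly as mm9), which held 37039 of the 37451 genes. Depth was the number of fragments and mean fragment length (200 nt in WT, 204 nt in ΔM) at which low FPKMs of single-transcript genes were whole multiples of 1 fragment, within 0.1. At these settings 89.8% of 1076 values in WT and 92.9% of 1048 in ΔM were whole, against 20% for evenly spread values. The search was tested on 3 simulated libraries, with an error of at most 1.22%. Fragments per gene used the median length of full-length coding transcripts.

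Log2 ratios (ΔM over WT) were formed with 1 FPKM added to each value and understate changes of low genes. Genes averaging less than 1 FPKM were not counted. No p-values were calculated. The 9 genes and all lists were chosen with earlier results of these data known. In each list the highest gene, the largest rise and fall and genes past 1.5-fold were named. *Il4*, *Il13*, *Socs2*, *Socs4* and *Socs5* were named besides. One further STAT gene is not reported here by name. Alternatives changed the pseudocount, filter, scaling and fold. Sequences of crosslinking sites came from the study's supplementary tables. Scripts ran in Python 3.11.15 (pandas 2.3.3, numpy 2.4.6, scipy 1.17.1, matplotlib 3.10.9).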

Additional observations from a re-analysis of the deposited data

How the results depend on the processing

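No paired analysis was possible because WT and ΔM were each sequenced as a single library, which also precluded leaving a library out. The number of STAT and SOCS genes lower in ΔM by at least 1.5-fold went from 1 to 0 with 10 FPKM added and to 0 with a limit of 2-fold, and stayed at 1 under the other 5 alternatives, while 0 were higher under all 7. The median log2 ratio of the members lay between -0.00763 (no filter, 9 genes) and 0.11, and was below 0 only without the filter. Of 76 pathway genes, 4 were higher and 5 lower in the main calculation (4.82% and 5.36% of protein-coding genes). These were 2 and 2 with 10 FPKM added, 2 and 3 of 57 with a minimum mean of 10 FPKM (3.22% and 3.92%), and 2 and 1 of 76 with a limit of 2-fold (1.19% and 1.32%). Adding 10 FPKM makes the ratio of every gene smaller in size. The share over all genes was not calculated at that setting, so its counts have no background beside them. Rescaling to the sum of protein-coding FPKMs divides each library by a constant, so ranks within a library cannot change. It moved the log2 ratio of *Cish* to -1.29, because 1 unit is then smaller beside the values. The depth limits *Stat4* and *Cish* most.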
